A study of Mus musculus with 6 samples.

Results

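Immediate early genes and chaperone genes were followed in presomitic mesoderm tissue of the mouse embryo, the tail tissue that has not yet been cut into somites. The set held 40 genes chosen by name, and 39 of them had at least 1 probe set that the platform annotation assigns to that gene alone, out of 12393 genes measured in this way. They fell into 18 immediate early genes, 12 of 13 heat shock genes and 9 genes of the endoplasmic reticulum (ER), read by 24, 29 and 21 probe sets. Hsp90ab1, the constitutive cytosolic HSP90 gene, was not analysed here.

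Embryos were collected at 9.5 days post coitum, dissected in cold medium, freed of allantois remnants, and cut behind the youngest somite, so that the tissue held all germ layers. Wild-type C57BL/6 embryos were compared with embryos of that strain homozygous for Dll3 tm1Rbe, also called Dll3neo, an allele of the gene for a divergent Notch ligand. There were 3 biological pools of each genotype and 1 Affymetrix MOE430A array per pool. The sources used here do not give the number of embryos per pool, and p-values measure the spread between pools. A value of 1 stands for the median of the 6 arrays, since the deposited ratios set each probe set against that median, and ratios were averaged on the log2 scale over the probe sets of a gene, so a value orders the pools for 1 gene and says nothing of how abundant a transcript is. For the same reason the labelled tissue could not be checked by the levels of its markers.

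Immediate early genes such as Fos, Jun and Egr1 are transcribed within minutes of growth factor signals or of handling and wounding of a tissue, and many encode transcription factors with short-lived mRNAs. Heat shock factors raise cytosolic chaperones when proteins unfold in the cytosol, and a related program in mitochondria raises the Hspd1, Hspe1 and Hspa9 chaperones. The unfolded protein response, which acts through Xbp1, Atf4 and Atf6, raises the chaperones and disulfide isomerases of the ER. In the tail bud some immediate early genes also lie downstream of FGF signalling, as Egr1 does.

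Dll3 was the 1 gene of 12393 that passed the test between genotypes, and it fell 3.39-fold in the mutant. Its ratio was 1.46, 1.63 and 2.01 for wild-type pools 1 to 3 against 0.480, 0.476 and 0.537 for mutant pools 1 to 3 (log2 difference -1.76, SE 0.13, limma adjusted p = 0.001325). The genotypes did not overlap, and Dll3 followed the labels in every pool. Over all genes wild-type pool 3 spread the widest, with an SD of 0.274 on the log2 scale, against 0.139 to 0.196 in the other 5 pools. Mutant pool 1 held high values of heart muscle markers, all 14 of which lay at least 1.5-fold above the median of the other pools.

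No stress gene passed the test between genotypes. The adjusted p was 1.0 for each of the 39 genes in limma with Benjamini-Hochberg adjustment over all 12393 genes, where 0.00807% of all genes passed. Hspa4 alone had an unadjusted p under 0.05 in limma, as 1.28% of all genes had. By sign 13 members were higher and 26 lower in the mutant, with a median log2 difference of -0.05 against 0.00278 for all genes. In bulk tissue, fewer cells of a type and less RNA per cell cannot be told apart. In simulated data for 12000 genes the test found 83% of genes changed 2-fold and 0% of those changed 1.5-fold. The simulation took its noise from single probe sets and made it equal for all arrays, unlike the gene averages tested here. Those shares are therefore a rough guide only, and small differences could have been missed with 3 pools a genotype.

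**Figure D1:**
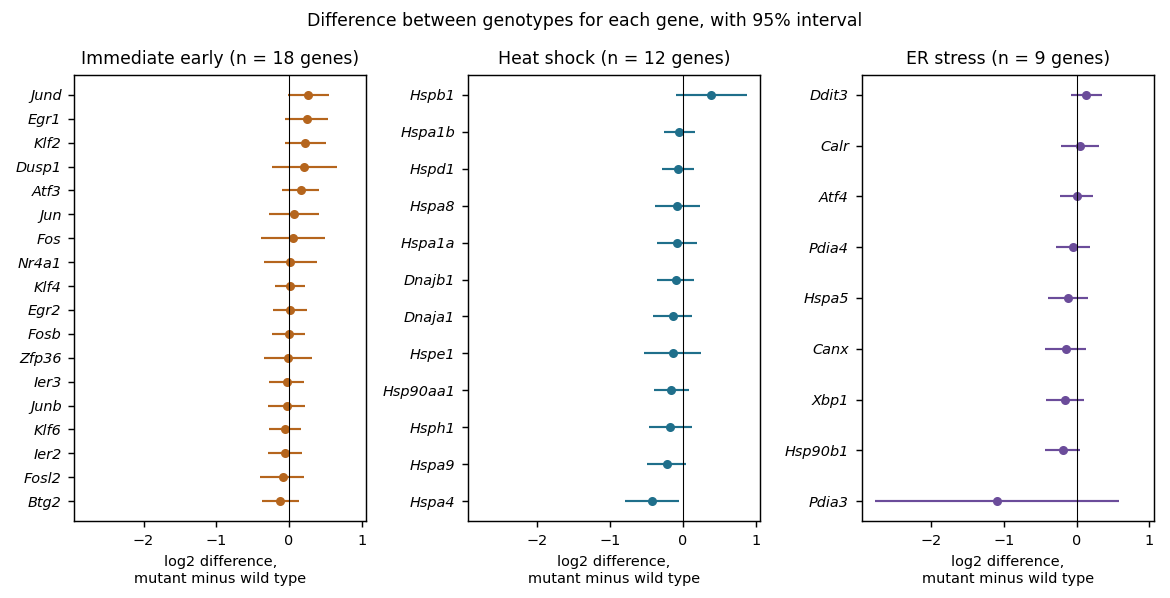
Log2 difference between genotypes, mutant minus wild type, for each gene of the immediate early (18 genes), heat shock (12) and ER stress (9) groups. Points are estimates from 3 pools a genotype and bars are 95% intervals of limma. The heat shock estimates lie left of 0 for 11 of 12 genes, and the bar of Pdia3 runs from -2.77 to 0.58.

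No immediate early gene passed the test. Of 18 genes 10 were higher and 8 lower in the mutant by sign, where 51.1% of all genes were higher, and the median log2 difference was 0.01. The differences ran from -0.12 for Btg2, an antiproliferative gene, to 0.26 for Jund. The median log2 ratio of the group was -0.04, 0.01 and -0.09 for wild-type pools 1 to 3 against -0.02, 0.02 and -0.01 for mutant pools 1 to 3. All 6 medians lay within 0.1 of 0.

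Jund, an AP-1 subunit, had the largest difference of the group and was its 1 gene whose genotypes did not overlap, as 3.11% of all genes were higher in the mutant without overlap. Its ratio was 0.940, 0.986 and 0.880 for wild-type pools 1 to 3 against 1.04, 1.34 and 1.01 for mutant pools 1 to 3. Mutant pool 2 was the high one, and the other mutant pools lay just above the highest wild-type pool. The log2 difference was 0.26 (95% interval -0.02 to 0.55), and 0.14 without mutant pool 2.

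Egr1, a zinc finger factor induced by ERK signalling, had ratios of 0.925, 1.05 and 0.820 across wild-type pools against 1.23, 1.14 and 0.949 across mutant pools, pools in order. The genotypes overlapped, with a log2 difference of 0.25 (95% interval -0.05 to 0.54), which was 0.16 without wild-type pool 3. Klf2, a Krüppel-like factor best known from endothelium under flow, followed the same order of pools in the mutant, with 1.25, 1.1 and 0.977 against 0.978, 1.02 and 0.844 in the wild type. Its log2 difference was 0.22 (95% interval -0.06 to 0.50), and 0.13 without mutant pool 1 or 0.14 without wild-type pool 3. Atf3, a stress-induced factor of the ATF family, stood at 0.906, 0.971 and 1.03 across wild-type pools against 0.958, 1.19 and 1.1 across mutant pools. Mutant pools 2 and 3 were the high ones and mutant pool 1 lay within the wild-type range, with a log2 difference of 0.16 (95% interval -0.10 to 0.41) that was 0.08 without mutant pool 2.

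Dusp1, the phosphatase that ends MAP kinase signalling, was set apart by a single pool. Its ratio was 0.619, 0.916 and 1.21 across wild-type pools against 0.987, 1.01 and 1.06 across mutant pools, pools in order. Wild-type pool 1 lay 1.64-fold below the median of the other 5 pools, a departure of at least 1.5-fold that 0.315% of all genes showed there. The log2 difference of 0.21 (95% interval -0.24 to 0.66) turned to -0.05 without that pool.

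Fos, the defining member of the program, had both its highest and its lowest pool in the mutant, and its log2 difference was 0.05 (95% interval -0.39 to 0.49). It turned to -0.19 without mutant pool 1 and was 0.26 without mutant pool 3. Its ratio was 1.11, 1.01 and 0.896 across wild-type pools against 1.44, 0.988 and 0.778 across mutant pools. Fos, Egr1, Klf2, Ier3 and Nr4a1 were highest in mutant pool 1, 5 of 18 genes where 11.9% of all genes were highest there, while Junb, Btg2 and Ier2 were lowest in the same pool, 3 of 18 where 16.9% of all genes were. Junb, also an AP-1 subunit, stood at 0.834 there and Btg2 at 0.843. Fos (1.44) and Junb (0.834) thus lay on opposite sides of their medians on that array. Nr4a1, an orphan nuclear receptor gene, was low in wild-type pool 3 (0.782) and in mutant pool 2 (0.730). The remaining genes Fosb, Fosl2, Jun, Egr2, Ier2, Ier3, Klf4, Klf6 and Zfp36, an mRNA decay factor, had log2 differences between -0.09 and 0.07. Egr2 had low gene ratios in every pool, 0.688 to 0.789, because the ratios of probe set 1427682_a_at have a median of 0.531 and not 1, and these low ratios say nothing of its level.

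**Figure D2:**
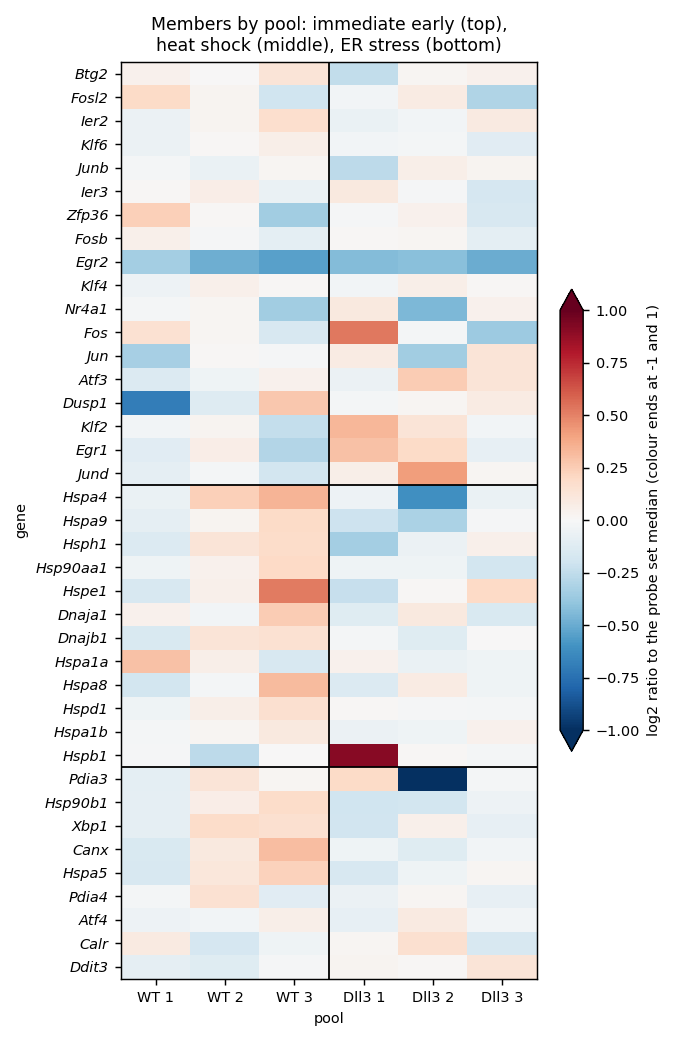
Log2 ratio to the probe set median for the 39 genes (rows) in the 6 pools (columns), with immediate early genes at the top, heat shock genes in the middle and ER stress genes at the bottom. Red is above and blue below the median, and colour ends at -1 and 1. Heat shock genes are mostly red in wild-type pool 3, and Hspb1 in mutant pool 1 and Pdia3 in mutant pool 2 are the deepest colours.

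Among heat shock genes 11 of 12 were lower in the mutant by sign, against 48.9% of all genes, with a median log2 difference of -0.12. None of them passed the test. The median log2 ratio of the group was -0.05, 0.04 and 0.19 for wild-type pools 1 to 3 against -0.06, -0.04 and -0.02 for mutant pools 1 to 3. The mutant pools were nearly level, wild-type pool 1 lay among them, and wild-type pool 3 lay above them all. Wild-type pool 3 was the highest of the 6 pools for 10 of the 12 genes, where 34.4% of all genes were highest there. Quantile normalization, which evens out the wide spread of that array, left 5 of 12 highest in it, against 18.2% of all genes. Leaving out wild-type pool 3 gave a median log2 difference of -0.05, with 9 of 12 lower, and without wild-type pool 1 it was -0.19, with 10 of 12 lower. Of the markers of presomitic mesoderm, 9 of 9 measured were lower in the mutant by sign, none of them called. For 3 of them the genotypes did not overlap, where 1.84% of all genes were lower without overlap. The median ratio of the markers was 1.09, 1.01 and 1.19 across wild-type pools and 0.918, 0.853 and 0.979 across mutant pools. Fewer cells of this tissue and less RNA of these genes per cell cannot be told apart here. The part of the markers in the heat shock values was not tested.

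**Figure D3:**
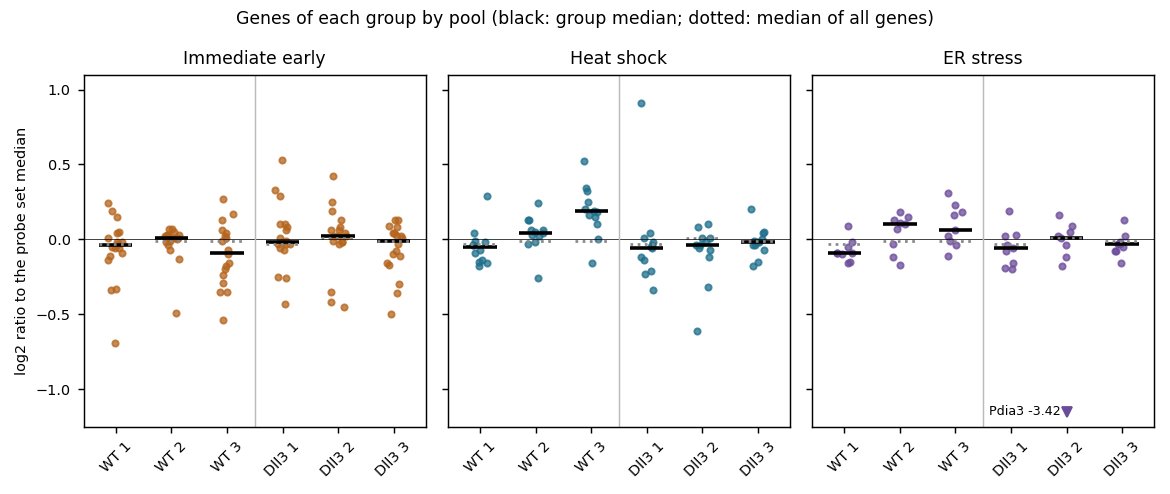
Log2 ratio to the probe set median of each gene (points) by pool for the 3 groups, with the group median as a black bar and the median of all genes as a dotted bar. In the heat shock panel the median of wild-type pool 3 is 0.19 and those of the other pools lie between -0.06 and 0.04. Pdia3 in mutant pool 2, at -3.42, is drawn at the lower edge.

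Heat shock elements, the sites where heat shock factors bind, were looked for in the promoters, apart from the arrays. Promoter windows of 300 bases, 250 before and 50 after the start, were taken from RefSeq (GRCm38.p6) and were found for 34 of the 40 genes, 9 of them heat shock genes. Paired units of the heat shock element, GAANNTTC or TTCNNGAA, which read the same on both strands, were present in the windows of 7 of these 9 genes, of 3 of 16 immediate early genes and of 0 of 9 ER genes. Some genes have several windows: counted by window, 8 of 14 heat shock and 3 of 20 immediate early windows held them, against 15.1% of all 32851 windows. The longer form with 3 units, GAA, TTC and GAA or TTC, GAA and TTC with 2 bases between units, which contains the paired form, was in the windows of Hspd1, Hspe1 and Hsph1 and in 0.603% of all windows. A match describes letters and is not proof of a bound site. In Hsph1 the longer form lies after the start and is not in the stretch shown. The stretches below run 5′ to 3′ on the strand of the named gene, with paired units in capitals.
Hspe1: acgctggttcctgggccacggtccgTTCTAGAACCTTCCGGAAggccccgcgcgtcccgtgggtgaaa
Hsph1: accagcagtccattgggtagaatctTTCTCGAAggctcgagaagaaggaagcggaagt
Hspa1b: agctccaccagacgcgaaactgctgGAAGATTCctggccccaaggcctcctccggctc
Hspb1: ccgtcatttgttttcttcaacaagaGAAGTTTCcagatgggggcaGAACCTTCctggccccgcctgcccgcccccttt
Dnaja1: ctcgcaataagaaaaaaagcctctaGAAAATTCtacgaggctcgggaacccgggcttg
They lie at chr1:55088034-55088101 on the plus strand, chr5:149636337-149636394 on the minus strand, chr17:34959310-34959367 on the minus strand, chr5:135887777-135887854 on the plus strand and chr4:40722319-40722376 on the plus strand, in the order shown. The stretch of Hspe1 also serves Hspd1, which is read from the opposite strand: 285 of the 300 bases of their windows are the same DNA. The windows of Hspa1a and Hspa1b differ at 4 of 300 bases.

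The mitochondrial pair behind the first stretch had its highest ratios in wild-type pool 3. Hspe1, the co-chaperonin of the mitochondrial matrix, stood at 0.894, 1.03 and 1.43 across wild-type pools against 0.852, 1.0 and 1.15 across mutant pools, pools in order. Hspd1, the chaperonin HSP60, stood at 0.971, 1.04 and 1.11 across wild-type pools against 1.01, 0.994 and 0.984 across mutant pools. Wild-type pool 3 was highest for both, though by less for Hspd1, and the genotypes overlapped for both genes. Their log2 differences were -0.14 (95% interval -0.54 to 0.25) and -0.06 (95% interval -0.29 to 0.16), and that of Hspe1 turned to 0.05 without wild-type pool 3.

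Hspa4, a nucleotide exchange factor of HSP70, was the member with the smallest p. Its ratio over 3 probe sets was 0.955, 1.18 and 1.27 across wild-type pools against 0.963, 0.654 and 0.951 across mutant pools. The genotypes overlapped, since mutant pool 1 lay above wild-type pool 1, and mutant pool 2 was far lower than the others. The log2 difference was -0.42 (SE 0.17, 95% interval -0.80 to -0.05), and it was -0.24 without mutant pool 2. The probe sets disagreed about that pool. Probe set 1416147_at read 0.319 in it, 3.21-fold below the median of the other pools, while 1416146_at read 1.03 and 1435194_at read 0.848. By 1435194_at the genotypes did not overlap, as for 5.03% of all probe sets: it read 1.05, 1.19 and 1.37 in the wild type against 0.949, 0.848 and 0.909 in the mutant (log2 difference -0.41).

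Hspa9, the mitochondrial HSP70 also called mortalin, showed the same kind of split among its 4 probe sets. Its gene ratio was 0.937, 1.02 and 1.14 across wild-type pools against 0.866, 0.800 and 0.993 across mutant pools, with a log2 difference of -0.22 (95% interval -0.49 to 0.05). Probe set 1431274_a_at read 0.461 in mutant pool 2, 2.18-fold below the median of the other pools, where the other probe sets of the gene read 1.05, 0.844 and 1.0. By that probe set the genotypes did not overlap, as for 5.03% of all probe sets, and in the other 3 they did. Without mutant pool 2 the difference was -0.15.

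Hsp90aa1, the inducible cytosolic HSP90, was the 1 heat shock gene without overlap between genotypes, as 1.84% of all genes were lower in the mutant without overlap. Its ratio was 0.976, 1.03 and 1.15 across wild-type pools against 0.971, 0.970 and 0.881 across mutant pools. The gap is narrow, with wild-type pool 1 just above mutant pool 1, and by none of its 3 probe sets alone did the genotypes separate. The log2 difference was -0.16 (95% interval -0.40 to 0.08) and -0.09 without wild-type pool 3. Hsph1, the HSP110 gene whose promoter stretch stands above, had ratios of 0.908, 1.09 and 1.14 across wild-type pools against 0.790, 0.960 and 1.04 across mutant pools. In both genotypes pool 1 was the low one. Its log2 difference was -0.17 (95% interval -0.47 to 0.13), and -0.06 without mutant pool 1.

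By gene averages, the genes that respond most sharply to heat in cells did not stand apart. Hspa1b, an inducible HSP70 gene, ranged only from 0.961 to 1.07 over the 6 pools, and Dnajb1, its inducible HSP40 partner, from 0.903 to 1.11. Single probe sets ranged more widely. For Dnajb1, 1416755_at ran from 0.854 in wild-type pool 1 to 1.28 in wild-type pool 3. Its probe set 1416756_at ran from 0.728 in mutant pool 2 to 1.14 in wild-type pool 2. For Hspa1b, 1427127_x_at ran from 0.892 in mutant pool 1 to 1.25 in wild-type pool 3, its other probe sets from 0.936 to 1.07. Hspa1a, the near-identical copy of Hspa1b, ranged from 0.896 in wild-type pool 3 to 1.22 in wild-type pool 1, the opposite order to most of the group. Because the copies are so alike, how their probe sets divide the signal between them is uncertain. Hspa8, the constitutive HSP70, and Dnaja1, a cytosolic HSP40, were highest in wild-type pool 3 at 1.25 and 1.19, and their log2 differences were -0.08 and -0.14. That of Hspa8 turned to 0.07 without wild-type pool 3.

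Hspb1, the small heat shock protein HSP25, which is abundant in muscle, was the 1 heat shock gene higher in the mutant by sign. Its ratio was 0.992, 0.834 and 1.0 across wild-type pools against 1.88, 1.0 and 0.987 across mutant pools. Only mutant pool 1 was high, 1.89-fold above the median of the other 5 pools, a departure of at least 1.5-fold upward that 0.403% of all genes showed in that pool, and Hspb1 ranked 24 of 12393 genes there. Both of its probe sets were high there, at 1.95 and 1.81. The log2 difference of 0.39 (95% interval -0.10 to 0.88) was 0.09 without mutant pool 1. Heart muscle markers were high in the same pool: 14 of 14 were at least 1.5-fold above the other pools, with ratios from 1.49 to 19.5 and a median of 4.38, against medians of 0.847 to 1.0 in the other 5 pools. Cryab, another small heat shock gene of muscle, stood at 1.46 in that pool and between 0.879 and 0.940 elsewhere. Of 9 visceral endoderm markers 2 were also at least 1.5-fold above in that pool. Of 7 primitive blood markers 0 were, though 5 were highest there, where 11.9% of all genes were. The part of RNA from heart muscle or from these other tissues in the Hspb1 value was not tested.

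**Figure D4:**
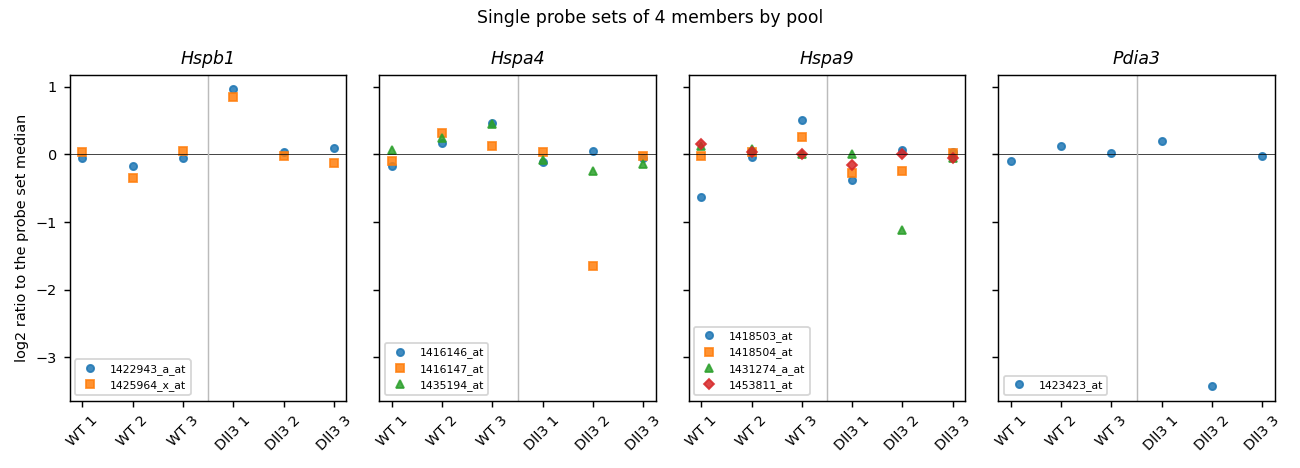
Log2 ratio to the probe set median for every probe set of Hspb1, Hspa4, Hspa9 and Pdia3 by pool, 1 symbol per probe set. Both probe sets of Hspb1 are high in mutant pool 1 (ratios 1.95 and 1.81), whereas 1 of 3 probe sets of Hspa4 and 1 of 4 of Hspa9 are low in mutant pool 2.

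In the ER group 7 of 9 genes were lower in the mutant by sign, against 48.9% of all genes, and the median log2 difference was -0.12. No gene of the group passed the test. The median log2 ratio was -0.09, 0.10 and 0.06 for wild-type pools 1 to 3 against -0.06, 0.01 and -0.03 for mutant pools 1 to 3. Here wild-type pool 1 was the lowest of all, so the genotypes overlapped. With wild-type pool 1 left out the median log2 difference was -0.23, with wild-type pool 3 left out -0.04, and with mutant pool 1 left out -0.07. It was -0.059 without _x_ and _s_ probe sets, which the maker marks as shared between transcripts, and -0.079 over single probe sets.

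The ER stress element, CCAAT and CCACG with any 9 bases between them, was found in part of this group. Searched on both strands, it stood in the promoter windows of 4 of 9 ER genes, in 0 of 9 heat shock genes and 0 of 16 immediate early genes, and in 0.119% of all 32851 windows. Its matches are shown on the strand that carries CCAAT first, 5′ to 3′, with both ends of the element in capitals.
Hspa5: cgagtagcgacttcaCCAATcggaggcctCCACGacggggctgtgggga
Calr: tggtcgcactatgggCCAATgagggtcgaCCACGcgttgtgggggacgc
Canx: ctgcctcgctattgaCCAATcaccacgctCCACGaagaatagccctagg
Hsp90b1, first match: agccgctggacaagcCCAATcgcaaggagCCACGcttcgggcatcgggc
Hsp90b1, second match: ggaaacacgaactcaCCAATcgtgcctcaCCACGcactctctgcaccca
In this order they lie at chr2:34772010-34772058 on the plus strand, chr8:84847060-84847108 on the plus strand, chr11:50325785-50325833 on the minus strand, chr10:86705623-86705671 on the minus strand and chr10:86705518-86705566 on the plus strand (GRCm38.p6). By sign 3 of the 4 genes with the element and 4 of the 5 without it were lower in the mutant, with median log2 differences of -0.14 and -0.05. For heat shock genes the medians were -0.08 for the 7 with paired units and -0.26 for the 2 without. Those 2 were Hspa4 (-0.42, or -0.24 without mutant pool 2) and Dnajb1 (-0.09), too few for an order to be read. Hspa8, Hspa9 and Hsp90aa1 had no window.

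Hsp90b1, the ER HSP90 also called GRP94, had ratios of 0.939, 1.05 and 1.13 across wild-type pools against 0.870, 0.884 and 0.969 across mutant pools. Mutant pool 3 was the 1 mutant pool above the lowest wild-type pool. Its log2 difference was -0.19 (95% interval -0.44 to 0.05), carried by probe set 1438040_a_at (-0.33) more than by 1415889_a_at (-0.06). By 1438040_a_at the genotypes did not overlap, as for 5.03% of all probe sets.

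Canx, the membrane lectin chaperone calnexin, stood at 0.904, 1.07 and 1.24 across wild-type pools against 0.971, 0.922 and 0.976 across mutant pools. Hspa5, the ER HSP70 called BiP, stood at 0.893, 1.08 and 1.17 across wild-type pools against 0.898, 0.974 and 1.01 across mutant pools. Wild-type pool 3 was the highest and wild-type pool 1 the lowest for both genes, so the wild type alone spanned the mutant values. Their log2 differences of -0.15 and -0.12 were -0.04 and -0.03 without wild-type pool 3. Calr, the soluble lectin chaperone calreticulin, went another way, with a log2 difference of 0.05 and its highest ratio, 1.11, in mutant pool 2.

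Pdia3, a disulfide isomerase that works with calnexin and calreticulin, had the largest departure of all genes in mutant pool 2. Its single probe set read 0.930, 1.1 and 1.01 across wild-type pools against 1.14, 0.0936 and 0.985 across mutant pools. Mutant pool 2 lay 10.8-fold below the median of the other 5 pools, rank 1 of 12393 genes, where 0.758% of all genes lay at least 1.5-fold below. The log2 difference of -1.1 (95% interval -2.77 to 0.58) rests on this pool and was 0.07 without it. Pdia4, a related isomerase, read 1.02 in the same pool. With 1 probe set for Pdia3, no second reading of the gene was at hand. Over all genes 98 probe sets lay at least 2-fold below the other pools in mutant pool 2, of which 80 belonged to genes with a further probe set, and for 47.5% of these a further one lay at least 1.5-fold below as well. In mutant pool 1 the share was 75% of the 20 such probe sets at least 2-fold above. In wild-type pool 3 it was 35.1% of the 37 at least 2-fold above. The remaining pools and directions held 5 or fewer such probe sets each.

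Of the regulators of the unfolded protein response, Ddit3, the proapoptotic factor CHOP, was higher in every mutant pool than in any wild-type pool. Its ratio was 0.937, 0.920 and 0.992 across wild-type pools against 1.02, 1.01 and 1.1 across mutant pools. The whole range is narrow, and the log2 difference was 0.13 (95% interval -0.08 to 0.35). Together with Jund and Hsp90aa1 it made 3 of 39 members without overlap, where 4.95% of all genes had none. Xbp1, a transcription factor whose mRNA is spliced when the pathway is active, stood at 0.940, 1.13 and 1.12 across wild-type pools against 0.876, 1.03 and 0.946 across mutant pools. Its log2 difference was -0.16 (95% interval -0.42 to 0.10), or -0.10 without mutant pool 1, and its 4 probe sets ran from -0.29 to 0.06. Atf4, the effector of the integrated stress response, hardly moved, from 0.944 to 1.06 over the 6 pools.

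Single pools were examined by counting members at least 1.5-fold from the median of the other 5 pools. There were 3 of 39: Dusp1 low in wild-type pool 1, Hspb1 high in mutant pool 1 and Pdia3 low in mutant pool 2. Over all genes 4.27% departed in some pool. By gene averages at that fold, no 2 members departed in the same pool, and no immediate early gene was high in any pool. At 1.3-fold there were 9 of 39 members, where 23.8% of all genes departed. Of the immediate early genes, Fos was high by that fold in mutant pool 1 and Jund in mutant pool 2. Of all genes 1.18% and 0.896% were high by that fold in these pools. Dusp1 was low by it in wild-type pool 1, Nr4a1 in wild-type pool 3 and mutant pool 2, and Fos in mutant pool 3. Among the chaperone genes, Hspa4 and Pdia3 joined Nr4a1 in being low by 1.3-fold in mutant pool 2, as 1.72% of all genes were. Hspa4 and Hspe1 were high by it in wild-type pool 3, as 10.9% of all genes were. In mutant pool 1 Hspb1 was high by it and Hsph1 low, as 1.18% and 2.03% of all genes were. Among the 74 probe sets 11 departed by 1.5-fold, where 7.91% of all probe sets did. Single probe sets shared pools: those of Hspa4, Hspa9, Jun and Pdia3 were low in mutant pool 2. Those of Hspa8, Hspe1 and Xbp1 were high in wild-type pool 3, and those of Dusp1 and Hspa9 low in wild-type pool 1. Both probe sets of Hspb1 were high in mutant pool 1. Shares of all probe sets by pool at that fold were not computed. Of the 22 members with several probe sets 14 had the same sign of the difference in all of them. The same share over all genes was not computed, so the count cannot be set against one. Of these 74 probe sets, the single ones of Jund and Ddit3 had no overlap between genotypes. Nor had 1435194_at of Hspa4, 1431274_a_at of Hspa9, 1438040_a_at of Hsp90b1, 1416288_at of Dnaja1, 1420886_a_at of Xbp1 and 1422943_a_at of Hspb1. Of all probe sets 5.03% had none.

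Further genes of these pathways held no called gene either. None of 37 other immediate early genes, 34 other cytosolic and mitochondrial chaperone and co-chaperone genes and 31 other ER genes passed the test, with limma unadjusted p under 0.05 for 0 of them, and 22, 14 and 13 respectively were higher in the mutant by sign. Of the 34 other chaperones 21 were highest in wild-type pool 3, against 34.4% of all genes. The largest differences were 0.22 for Mafk and -0.21 for Gadd45g among other immediate early genes, -0.36 for Dnajc7 and 0.27 for Cryab among other chaperones, and -0.24 for Dnajc3 and -0.20 for Ero1a among other ER genes. Most of these leaned on 1 pool: Gadd45g was -0.08 and Dnajc3 -0.06 without wild-type pool 3, Dnajc7 -0.06 and Ero1a -0.11 without mutant pool 2, and Cryab 0.05 without mutant pool 1. Dnajc7, an HSP40 co-chaperone read by 1 probe set, was like Pdia3 low in mutant pool 2 (0.539).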

How the data were processed

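RNA of 6 pools, 3 per genotype, was hybridised to 1 MOE430A array each. The authors deposited a linear ratio per probe set; judged by its numbers, the table divides each probe set by its median over the 6 arrays (within 0.0011 of 1 for 92.8% of 22626 probe sets, below 1 for 1640). Of tools, the submitters' processing notes list RMA and MAS5 with no role, so background, summarisation and normalization between arrays are not known. Control probe sets (64) were left out. For 12393 genes, log2 ratios of the 20380 probe sets annotated to 1 gene were averaged, and genotypes were compared with limma 3.58.1 in R 4.3.3 (two-sided, genotype only, Benjamini-Hochberg over all genes, threshold 0.05). With 3 against 3 pools an exact permutation test cannot go below 0.10 and was not used. The number of arrays limits the precision. The test was checked on simulated data.

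The members, gene lists and alternatives were chosen with earlier results of these data known. Named in full were, per group, the 5 genes with the largest differences, members without overlap and members at least 1.5-fold apart in 1 pool; other members are given more briefly, except that Fos, Hspe1, Hspd1 and Hspa5 are also given by pool, chosen after their values were seen. Alternatives were quantile normalization, median centring, offsets of 0.1 and 1, leaving out probe sets with medians below 1 or with _x_ or _s_ names, single probe sets, robust and trended variances, gene-by-gene array weights, a replicate block, and leaving out each pool. The median of the probe sets of a gene was added after seeing the data. Plots came from matplotlib 3.10.9 (Python 3.11.15).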

Additional observations from a re-analysis of the deposited data

How the results depend on the processing

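No member passed limma under any of the alternatives run, and the smallest adjusted p of a member was 0.5846, with array weights. The count of all genes called was 1 and became 2 with quantile normalization, with median centring, without probe sets whose median is below 1 and with a variance trend, and 3 with array weights. Leaving out single pools gave 1 to 2 genes called, the 2 without wild-type pool 3. The added genes were Hnrnpl and, with array weights, Bcat2. The replicate block left 1 gene called (Dll3, adjusted p = 0.00134) and the medians of the 3 groups at 0.01, -0.12 and -0.12; it changed no call. The labels link pools across genotypes only by number and do not say whether same-numbered pools were handled together. Deviations of same-numbered pools correlated at 0.187, -0.00155 and 0.207 over genes. Wild-type pools 1 and 3 correlated best with the mutant pool of their own number, and wild-type pool 2 did not. Leaving out pools moved the ER group's median log2 difference between -0.23 and -0.044, that of the heat shock genes between -0.19 and -0.05 and that of the immediate early genes between -0.02 and 0.04, the last with either sign. The ER median was also -0.059 without _x_ and _s_ probe sets. Of the 15 members that the naming rule gives in full, 2 changed sign when 1 pool was left out: Dusp1 ran from -0.047 (without wild-type pool 1) to 0.44 and Pdia3 from -1.74 to 0.068 (without mutant pool 2), and the cause was not tested. Of the members printed by pool beside these, Fos and Hspe1 also changed sign. At a departure of 1.3-fold instead of 1.5-fold, 9 members departed in some pool in place of 3, against 23.8% of all genes. The direction of the other 13 held under the alternatives that average probe sets; by single probe sets 1 of 4 for Xbp1 went the other way. Ratios carry no brightness, so dim probe sets could not be set aside.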
